A study of Mus musculus with 6 samples.

Results

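The TRIM (tripartite motif) genes encode a large family of ubiquitin ligases. They were taken as every symbol of the table that begins with Trim followed by a digit, which gave 45 of the 14927 listed genes. The RNA came from aortic smooth muscle cells cultured from wild-type C57BL/6 mice and used at passages 3 to 7. The medium of all groups was lowered to 0.5% serum for 24 h before they received either 100 ng/mL recombinant TWEAK (3 libraries) or vehicle (3 libraries), each with 0.5% serum, for a further 24 h. TWEAK, a relative of tumour necrosis factor, is a secreted cytokine that signals through the receptor Fn14. One TWEAK and one vehicle library belong to each of 3 numbered experiments. Nothing in the labels says whether these used separate animals, so the spread between them may not be one between animals. It includes differences in macrophage and endothelial marker levels, given below.

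A TRIM protein usually carries a RING domain that recruits a ubiquitin-conjugating enzyme, 1 or 2 B-boxes and a coiled coil, followed by a C-terminal part that picks the substrate. Many members with a SPRY domain at that end are induced by interferon and act in antiviral sensing or in the tuning of NF-kB, the transcription factor that TWEAK activates. Others bind chromatin through a PHD finger and a bromodomain, or bind microtubules. Some lack the RING and are not known to be ligases by that route.

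Reads over the listed genes ran from 62632273 to 82118717 per library. Of 8 smooth muscle markers, all were in the table, 7 fell and Des rose, and their sum lay between 202540 and 281000 normalized counts with TWEAK and between 337360 and 388990 with vehicle. The macrophage and leukocyte sum (11 of 12 symbols, the other, Adgre1, being a second name of Emr1) lay between 3620 and 58104 with TWEAK and between 3380 and 59955 with vehicle. The endothelial sum (8 of 8) lay between 8813 and 64897 with TWEAK and between 9790 and 76768 with vehicle. The fibroblast sum (5 of 5) was 24239 to 78410 with TWEAK and 18151 to 57961 with vehicle. No macrophage or endothelial marker passed the test given below. After the GC correction described below, Cd14 was higher and Pecam1 and Emcn lower (limma adjusted p = 0.0170, 0.0190 and 0.0209). Among the fibroblast markers Dpt and Pdgfra rose by 1.64 and 1.44 on the log2 scale and Pi16 fell by 1.35 (Pdgfra was lost without experiment 2, adjusted p = 0.333). Lum (log2 fold change -0.60) and Dcn (0.080) did not pass, but Lum did after the GC correction (adjusted p = 0.00334). Within experiments the fibroblast sum was higher with TWEAK in 3 of 3, the endothelial sum lower in 3 of 3, the smooth muscle sum lower in 3 of 3 and the macrophage sum higher in 2. The two-sided exact permutation p, which ignores the pairing by experiment, was 0.1 for the smooth muscle sum, the smallest that 3 against 3 allow, 1 for macrophages, 0.7 for endothelium and 0.4 for fibroblasts. In bulk RNA, fewer cells of a type and less RNA per cell cannot be told apart, and the part of these other cells in the results below was not tested.

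Of the 45 TRIM genes, 6 rose with TWEAK (Trim30a, Trim2, Trim21, Trim59, Trim25 and Trim8), 1 fell (Trim66), and 38 did not pass. The test was limma on log2(normalized count + 1) with the experiment as a block, and a gene passed at a Benjamini-Hochberg adjusted p under 0.05 over all 14927 genes. By this test 13.7% of all genes passed, 8.11% higher and 5.55% lower with TWEAK, so the 15.6% of TRIM genes that passed is near the background. The median log2 fold change was 0.16 over the TRIM genes and 0.018 over all genes, and 29 of the 45 (64.4%) were above 0, against 52.3% of all genes. The TRIM median was 0.11 without experiment 2 and 0.072 without experiment 3. TWEAK was higher in all 3 experiments for 19 TRIM genes and lower in all 3 for 8, where 28.2% and 27.0% of all genes were. The unadjusted p was under 0.05 for 15 TRIM genes and for 30.3% of all genes. Without the block limma called none of the 45 (smallest adjusted p = 0.369, 2 with an unadjusted p under 0.05, as had 9.91% of all genes) and 0.0201% of all genes, 0.0201% higher and 0.00% lower. The authors' deposited table gave 9 TRIM genes as higher and 1 as lower, where 18.1% of all genes passed, 10.8% higher and 7.31% lower. Among all genes edgeR called 11.7% and DESeq2 18.1%, and limma called 4.66%, 26.1% and 4.46% without experiments 1, 2 and 3.

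**Figure D1:**
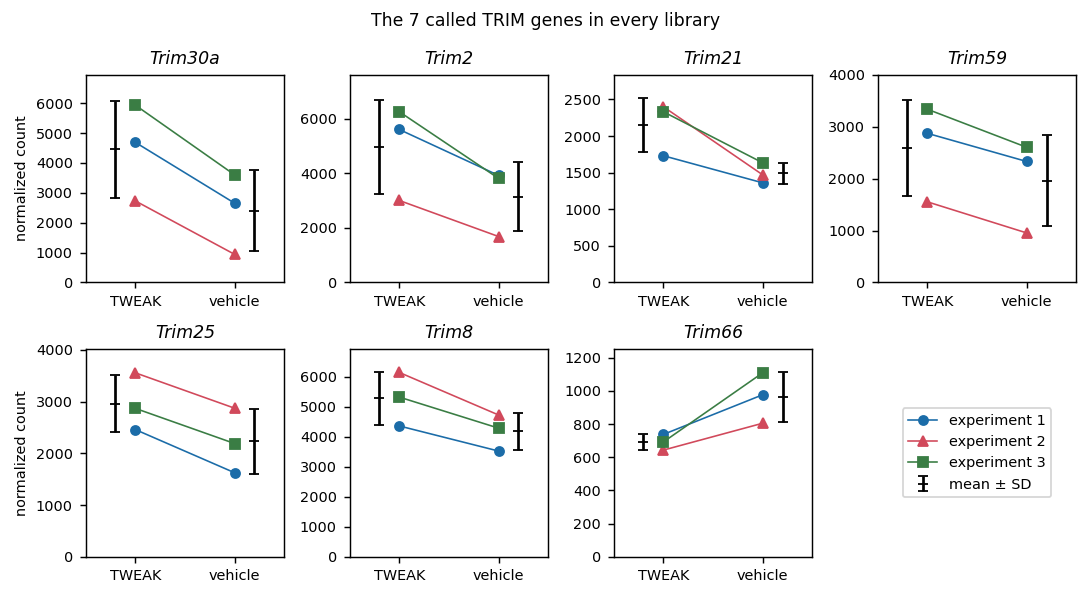
Normalized counts of the 7 TRIM genes that passed, with TWEAK (left) and vehicle (right) in each panel; coloured points joined by a line are the libraries of 1 experiment, and black bars are the mean ± SD (n = 3). Every line slopes the same way within a gene, while experiments 1 to 3 sit at different heights, with experiment 2 lowest for Trim30a, Trim2, Trim59 and Trim66.

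Interferon-activated factors bind DNA at the interferon-stimulated response element (ISRE), and the TRIM promoters with a match to its core are shown because they include Trim30a, the TRIM gene with the largest change. A match describes the letters and is not a measured site. RefSeq promoters (build GRCm38.p6) were available for 32 of the 45 genes, as 46 start sites, and the 250 bases before each start were searched on both strands. The core searched for, GAAA, then any 2 bases, then GAAA, was found at 4 of the 46 starts (8.70%), against 2.98% of all 32851 RefSeq starts. The capitals mark the match, which reads on the opposite strand in all 4, and each sequence is given 5′ to 3′ on the gene's strand.
Trim30a, minus strand of chr7:104465195-104465254: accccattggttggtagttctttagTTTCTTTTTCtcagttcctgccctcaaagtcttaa
Trim30d, minus strand of chr7:104507856-104507915: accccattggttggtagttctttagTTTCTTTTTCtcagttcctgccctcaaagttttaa
Trim12c, minus strand of chr7:104353350-104353403: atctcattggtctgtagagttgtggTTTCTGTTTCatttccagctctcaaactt
Trim26, plus strand of chr17:36836961-36837026: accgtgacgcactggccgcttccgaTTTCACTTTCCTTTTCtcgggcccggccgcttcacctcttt
The Trim30a and Trim30d windows differ at 1 of 60 bases. Trim30a has a second RefSeq start without a match, and the Trim26 window holds 2 overlapping matches. Of these 4 genes Trim30a rose and the other 3 did not pass. An NF-kB core, GGGA followed by any 4 bases and CC, was found at 5 of the 46 TRIM starts (10.9%) and at 17.6% of all starts. The third core searched, GAS, reads TTC, any 3 bases and GAA. It was found at 4 of the 46 TRIM starts (8.70%) and at 7.02% of all starts. Neither the NF-kB nor the GAS core stood before a start of the 6 called genes with an entry. No entry was used for Trim8, Trim3, Trim11, Trim14, Trim16, Trim17, Trim29, Trim33, Trim35, Trim36, Trim43b, Trim43c and Trim65.

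Of 11 TRIM genes known to be interferon-inducible in mouse or human, 3 rose, none fell and 8 did not pass, with a median log2 fold change of 0.43. This median was 0.24 without experiment 2 and 0.26 after the correction for GC content described below. Over all genes 8.11% rose, 5.55% fell and the median log2 fold change was 0.018. Trim30a, a mouse SPRY protein known to restrain NF-kB downstream of Toll-like receptors, had 4693, 2732 and 5939 normalized counts with TWEAK in experiments 1, 2 and 3, against 2655, 941 and 3603 with vehicle. It was higher with TWEAK in every experiment, but the groups overlapped, because the TWEAK library of experiment 2 lay below the vehicle library of experiment 3. Its log2 fold change was 1.03 (SE 0.17, adjusted p = 0.0205; 0.715 without the block), and the log2 ratios were 0.82, 1.54 and 0.72. Without experiment 1 the adjusted p was 0.0867 at a log2 fold change of 1.13, and without experiment 2 the log2 fold change was 0.77.

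Trim21, a cytosolic receptor for antibodies also known as the autoantigen Ro52, had 1731, 2401 and 2332 normalized counts with TWEAK and 1361, 1470 and 1635 with vehicle. All TWEAK libraries lay above all vehicle libraries, which made it the one TRIM gene whose groups separated upwards. The mean was 2155 ± 368 with TWEAK and 1489 ± 138 with vehicle (SD, n = 3), a log2 fold change of 0.52 (SE 0.09, adjusted p = 0.0234; 0.369 without the block). Trim25, which ubiquitinates the RNA sensor RIG-I, had 2459.5, 3556 and 2869 with TWEAK and 1624.5, 2872 and 2189 with vehicle. It was higher in each experiment, with overlapping groups, and its log2 fold change was 0.43 (SE 0.08, adjusted p = 0.0297; 0.747 without the block). With 2 experiments left, neither gene passed without experiment 1 (adjusted p = 0.0653 for Trim21 and 0.131 for Trim25) or without experiment 3 (0.139 and 0.165).

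The interferon-inducible genes that did not pass were Trim12c, Trim34a, Trim30d, Trim12a, Trim6, Trim14, Trim56 and Trim26. In the RefSeq gene order Trim6, Trim34a, Trim12a, Trim12c, Trim30a and Trim30d lie in 1 block of 10 TRIM genes on chromosome 7, and the other 4 of that block were not analysed here. The median log2 fold change of these 6 genes was 0.43, against 0.018 over all genes. All 6 were above 0 (without experiment 3 Trim6 was at -0.071), as were 52.3% of all genes, and Trim30a was the one that passed. This was not particular to the block. All 6 are among the 22 TRIM genes of lowest GC content, of which 20 were above 0, with a median of 0.32. The median of the 6 was 0.24 without experiment 2 and 0.25 after the GC correction. Trim12c, a mouse relative of the retroviral restriction factor TRIM5, had 4127, 1845 and 4006 normalized counts with TWEAK and 3563, 1023 and 3318 with vehicle. Its log2 ratios were 0.21, 0.85 and 0.27, and its log2 fold change of 0.44 (adjusted p = 0.106) was 0.24 without experiment 2. It passed in the authors' deposited table, as did Trim24 and Trim37 among the TRIM genes not called here. Trim30d had 4054, 1505 and 3552 with TWEAK and 4097, 721 and 2891 with vehicle, so its log2 ratios of -0.015, 1.06 and 0.30 did not share a sign. These genes have near-identical relatives, and the sources used here do not say how reads that fit several of them were assigned, so the values within the block are uncertain. Trim14, an adaptor of the antiviral protein MAVS that lacks a RING, had 24.4, 36.9 and 22.2 with TWEAK and 20.7, 25.5 and 6.91 with vehicle, and its log2 fold change of 0.77 (SE 0.37, adjusted p = 0.235) rests on few reads.

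Of 10 other regulators of innate immune and NF-kB signalling, 2 rose and 8 did not pass, where 8.11% of all genes rose. The median of the 10 was -0.021 and took either sign when an experiment was left out (-0.076 to 0.072). Trim8, a ligase known to raise NF-kB signalling through the kinase TAK1, had 4359, 6141 and 5320 normalized counts with TWEAK and 3522, 4723 and 4285 with vehicle. Its log2 ratios of 0.31, 0.38 and 0.31 were the most even among the genes that rose, although the groups overlapped. The log2 fold change of Trim8 was 0.33 (SE 0.07, adjusted p = 0.0318; 0.713 without the block). Trim59, a membrane-anchored member, had 2872, 1553 and 3335 with TWEAK and 2329, 953 and 2603 with vehicle, a log2 fold change of 0.45 (SE 0.10, adjusted p = 0.0448; 0.964 without the block). Trim59 was lost with edgeR (0.0600) and limma-voom (0.0582), and both genes were lost without experiment 1 (0.124 for Trim8 and 0.119 for Trim59) and without experiment 3 (0.237 and 0.171).

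Among those that did not pass, the log2 fold change of the SPRY protein gene Trim27 was 0.19 (adjusted p = 0.172) and that of Trim65, which acts on the RNA sensor MDA5, was 0.11. The log2 fold changes of Trim39, Trim41 and Trim68 were -0.14, -0.16 and -0.20. Trim13, an endoplasmic reticulum protein, averaged 986 ± 99.9 with TWEAK and 1049 ± 206 with vehicle (SD, n = 3). Trim23, which joins a RING to an ARF domain, averaged 2877 ± 1477 with TWEAK and 3044 ± 1827 with vehicle. Trim62 averaged 180 ± 2.08 with TWEAK and 190 ± 35.7 with vehicle.

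Among the 4 PHD-bromodomain genes none rose, Trim66 fell and 3 did not pass, where 8.11% of all genes rose and 5.55% fell. Trim66, which binds heterochromatin protein 1, had 738, 643 and 692 normalized counts with TWEAK, against 977, 805 and 1109.5 with vehicle. All TWEAK libraries lay below all vehicle libraries, and the mean was 691 ± 47.3 with TWEAK and 964 ± 152 with vehicle (SD, n = 3). The log2 fold change of Trim66 was -0.47 (SE 0.11, adjusted p = 0.0437; 0.431 without the block), and the log2 ratios were -0.40, -0.32 and -0.68. The call was lost with edgeR (0.0612), limma-voom (0.0568), without experiment 1 (0.152) and without experiment 3 (0.305).

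Trim28, the corepressor KAP1 of KRAB zinc finger proteins, had 18920, 24760 and 24374 with TWEAK and 15590, 21874 and 20640 with vehicle. It was higher in each experiment by a similar amount, with log2 ratios of 0.28, 0.18 and 0.24, and fell just short of the threshold (log2 fold change 0.23, SE 0.06, adjusted p = 0.0576). Trim24, a coregulator of nuclear receptors, had 4934, 4315 and 5652 with TWEAK and 4111, 2858 and 4709 with vehicle, and was as close at 0.37 (SE 0.09, adjusted p = 0.0580). Both passed without experiment 2 (adjusted p = 0.00352 for Trim28 and 0.00652 for Trim24). For Trim33, which acts on SMAD4, it was 0.28 (adjusted p = 0.204). Of 12 partners of KAP1, 2 rose and 1 fell, where 8.11% of all genes rose and 5.55% fell. The median of the 12 was 0.28 (0.18 after the GC correction), against 0.018 over all genes. The DNA methylation genes Uhrf1 (1.23) and Dnmt1 (0.76) rose, and Chd3, a chromatin remodeller, fell by 0.35. Both genes that rose are known to be expressed most in dividing cells, and a link of their rise to cell division was not tested. The call of Chd3 was lost without experiment 1 (adjusted p = 0.0789) and without experiment 3 (0.114).

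Of the 4 genes listed as microtubule-binding or as neuronal NHL-domain genes, Trim2 rose and Trim3, Trim36 and Trim46 did not pass. By comparison, 8.11% of all genes rose. Trim2, which ubiquitinates neurofilament light chain in mouse neurons, had the smallest adjusted p of the family. It had 5599, 3001 and 6250 normalized counts with TWEAK, against 3916, 1681 and 3808 with vehicle. TWEAK was higher in each experiment, by log2 ratios of 0.52, 0.84 and 0.71, while the experiment 2 library with TWEAK lay below the vehicle libraries of experiments 1 and 3. The log2 fold change of Trim2 was 0.69 (SE 0.09, adjusted p = 0.00825; 0.794 without the block), with an adjusted p of 0.0400 without experiment 1 and 0.0568 without experiment 3. Trim46, which bundles microtubules in the axon of neurons, was lower in each experiment but did not pass (log2 fold change -0.30, adjusted p = 0.125). Of muscle members, Trim32, also an NHL-domain protein and mutated in a human muscular dystrophy, averaged 4150 ± 202 with TWEAK and 4253 ± 215 with vehicle, and Trim72, a membrane repair protein of striated muscle, 19.1 ± 15.9 with TWEAK and 14.4 ± 9.48 with vehicle (SD, n = 3). Neither passed.

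**Figure D2:**
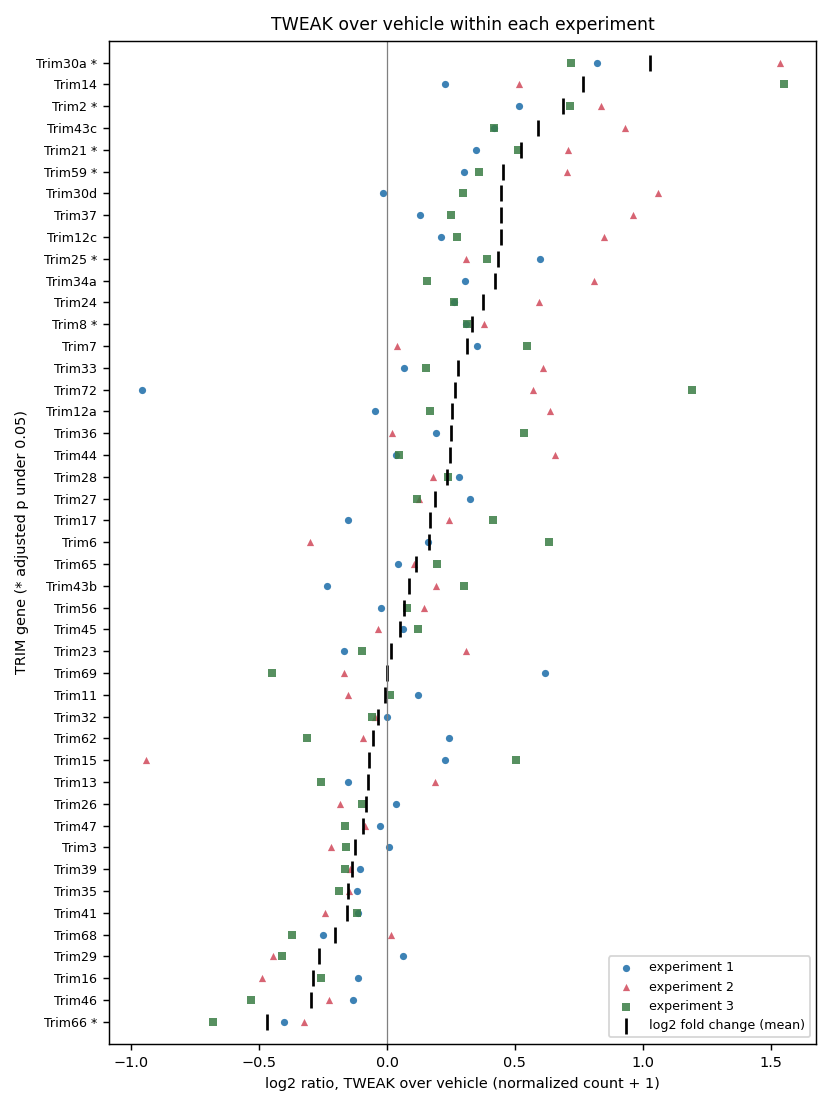
Log2 ratio of TWEAK over vehicle for all 45 TRIM genes, ordered by log2 fold change, with 1 coloured point per experiment and a black bar at the mean; an asterisk marks an adjusted p under 0.05. The points run from Trim30a at a mean of 1.03 to Trim66 at -0.47, and experiment 2 (triangles) lies to the right of the other two for Trim30a, Trim30d, Trim37 and Trim12c.

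None of the other 14 TRIM genes passed, against 13.7% of all genes. The median log2 fold change of the 14 was 0.025 (-0.014 to 0.076 with an experiment left out), against 0.018 over all genes. The abundance of the TRIM genes differed widely. Per kb of the longest GENCODE M21 transcript, a length not known to match the authors' annotation, Trim35 was the most abundant of all 45 genes with a level of 7125 normalized counts per kb. It was followed by Trim28 (6480), Trim47 (3916) and Trim44 (1842), while Trim72 was the least abundant (7.85). Trim35, a SPRY member, had 24380, 26107 and 24005 normalized counts with TWEAK and 26415, 28968 and 27354 with vehicle. Its groups did not overlap, but the log2 fold change of -0.15 did not pass (SE 0.06, adjusted p = 0.139). Trim16, a RING-less member linked to the clearance of damaged lysosomes, had 5824, 5464 and 5521 with TWEAK and 6302, 7674 and 6611 with vehicle, again without overlap (log2 fold change -0.29, adjusted p = 0.105). In all, the groups of Trim21 separated upwards (1 of 45, 2.22%), against 8.60% of all genes, and those of Trim66, Trim35 and Trim16 downwards (3 of 45, 6.67%), against 7.42% of all genes.

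Trim37, a centrosome regulator mutated in human mulibrey nanism, had 4966, 3661 and 4996 with TWEAK and 4537, 1882 and 4201 with vehicle, so most of its log2 fold change of 0.45 (adjusted p = 0.157) came from experiment 2, with log2 ratios of 0.13, 0.96 and 0.25. Trim44, which lacks a RING, had 12959, 9227 and 10850 with TWEAK and 12638, 5852 and 10502 with vehicle, with log2 ratios of 0.036, 0.66 and 0.047 (adjusted p = 0.297). Trim7, a partner of glycogenin, averaged 638 ± 79.1 with TWEAK and 513 ± 53.9 with vehicle (adjusted p = 0.176), Trim47 averaged 8363 ± 991 with TWEAK and 8899 ± 726 with vehicle, and Trim11 3417 ± 59.3 with TWEAK and 3445 ± 368 with vehicle. Trim45 averaged 786 ± 65.1 with TWEAK and 760 ± 64.3 with vehicle (SD, n = 3 each). The rest, Trim15, Trim17, Trim29, Trim43b, Trim43c and Trim69, were among 10 TRIM genes with a mean under 100 normalized counts, of which none passed. Trim43c, whose family is known from the early mouse embryo, had 63.5, 26.1 and 58.9 with TWEAK and 47.2, 13.2 and 43.8 with vehicle (log2 fold change 0.59, adjusted p = 0.187).

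**Figure D3:**
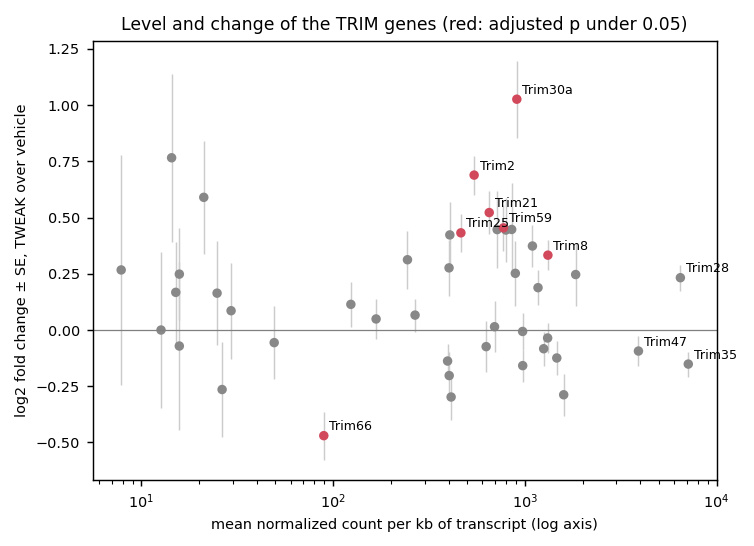
Log2 fold change of TWEAK over vehicle (± SE) against the mean normalized count per kb of transcript on a log axis, 1 point per TRIM gene, red where the adjusted p was under 0.05. The red points lie between 89.5 (Trim66) and 1320 (Trim8) per kb, and the most abundant genes, Trim35, Trim28 and Trim47, are grey.

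The experiments differed for 17 of the 45 TRIM genes (limma adjusted p under 0.05, 37.8%), where 48.6% of all genes differed. After the correction for GC content described below it was 20 TRIM genes and 47.3% of all genes. Experiment 2 was the lowest of the 3 for 23 TRIM genes (51.1%), against 38.1% of all genes. Trim23 was the most extreme: its counts in experiments 1, 2 and 3 were 3832, 1176 and 3625 with TWEAK and 4304, 949 and 3879 with vehicle. It was 3.69 times lower in experiment 2 than in the mean of the other two, Trim30d 3.47 times and Trim33 3.08 times lower. All 11 macrophage and leukocyte and all 8 endothelial markers differed among experiments by the same limma test. In experiments 1, 2 and 3 the macrophage and leukocyte sum was 58104, 9336 and 3620 with TWEAK and 59955, 9221 and 3380 with vehicle. The endothelial sum was 8813, 64897 and 39619 with TWEAK and 9790, 76768 and 45904 with vehicle. The part of other cells in the TRIM differences was not tested. The level of experiment 2 moved with base composition. Across the 45 genes the GC content of the longest transcript correlated with the level of experiment 2 relative to the others at Spearman's rho = 0.77, and across all 14778 genes with a transcript at 0.55; the points share libraries.

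The log2 ratio of experiment 2 also moved with GC content, in the other direction. Its level and its ratio are computed from the same libraries, so these correlations are not independent. The log2 ratio of TWEAK over vehicle correlated with GC content across the 45 genes at rho = -0.57 in experiment 2, against -0.14 in experiment 1 and -0.28 in experiment 3, and at -0.46 in experiment 2 across all genes. Among the 22 TRIM genes with the lowest GC content the median log2 ratio was 0.18, 0.62 and 0.27 in experiments 1, 2 and 3, and among the other 23 it was 0.03, -0.09 and -0.06. All genes were split at the same GC content. Below it their medians in experiments 1, 2 and 3 were -0.024, 0.27 and 0.0096, and otherwise -0.0034, -0.11 and -0.052. Of the 22 TRIM genes, 5 rose and 20 were above 0, while of the 23, Trim8 rose, Trim66 fell and 9 were above 0. Among all genes 8.11% rose and 5.55% fell. After each library was corrected for transcript length and GC content, a step chosen after seeing the data, all 7 calls were kept and 13 TRIM genes passed in all, 11 higher and 2 lower, where 26.1% of all genes passed, 13.7% higher and 12.4% lower. The log2 fold change was then 0.84 for Trim30a, 0.56 for Trim2 and 0.24 for Trim59 (adjusted p = 0.0456), and Trim12c, Trim24, Trim28, Trim34a and Trim7 were higher and Trim16 lower. The median over the TRIM genes was then 0.092 and over all genes -0.0021. Over the 22 TRIM genes of low GC content it was 0.20, with 17 above 0. Over the other 23 it was -0.0089, with 10 above 0.

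**Figure D4:**
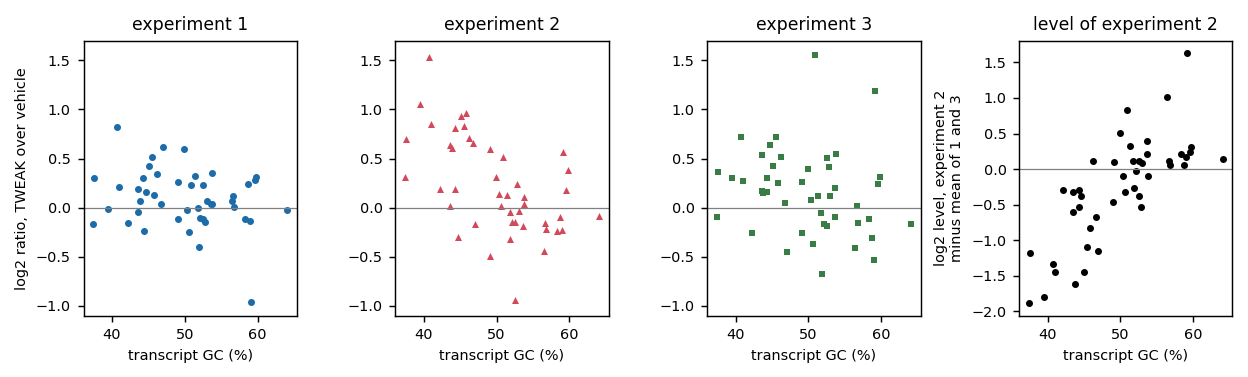
The first 3 panels show the log2 ratio of TWEAK over vehicle in each experiment against the GC content of the longest transcript, 1 point per TRIM gene, and the last panel the mean log2 level of experiment 2 minus that of experiments 1 and 3. Genes of low GC content lie high in the panel of experiment 2 (rho = -0.57) and low in the last panel (rho = 0.77), while the panel of experiment 1 shows little slope (-0.14).

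Related genes outside the Trim symbols moved as follows. Over all genes 13.7% passed, 8.11% higher and 5.55% lower, and the median log2 fold change was 0.018. Of 7 TRIM or TRIM-like proteins under other names, 2 rose and 5 did not pass. Pml, which organises nuclear bodies, averaged 8024 ± 1382 with TWEAK and 6226 ± 1313 with vehicle (SD, n = 3; log2 fold change 0.37, adjusted p = 0.0265; 0.746 without the block). Fsd2, a SPRY protein without a RING, averaged 67.0 ± 15.7 with TWEAK and 7.90 ± 1.31 with vehicle, a log2 fold change of 2.92 (adjusted p = 0.00682). The size of this change rests on few reads with vehicle. Of 17 ubiquitin and ISG15 conjugation genes 5 rose and none fell: Uba7 (0.75), Ube2l6 (0.62), Isg15 (0.77) and Usp18 (0.85) encode the ISG15 enzyme cascade, its substrate and its protease, and the polyubiquitin gene Ubb rose by 0.35 (named after its value was seen). Without experiment 1 Uba7 (adjusted p = 0.0571), Ube2l6 (0.0876), Isg15 (0.0505), Ubb (0.0917), Pml (0.124) and Fsd2 (0.0560) were lost, and without experiment 3 Ube2l6 (0.0939), Ubb (0.122) and Pml (0.221). The 10 measured ubiquitin-conjugating enzymes and enzyme variants of the Ube2d, Ube2e, Ube2n, Ube2v and Ube2w groups, which serve RING ligases, did not pass. Of 18 genes of RIG-I and STING sensing, on which TRIM proteins act, 7 rose, 11 did not pass and the median was 0.26 (0.11 without experiment 2). Traf3 rose by 1.01, Ddx58, which encodes RIG-I, by 0.99, Irf7 by 0.98 and Dhx58 by 0.91 on the log2 scale.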

How the data were processed

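Total RNA libraries of 6 samples were analysed from 1 deposited table of 14927 genes. Per the file headers it holds the authors' normalized counts (a signal, in which each library's reads were scaled by 1 factor). It also holds the authors' log2 fold change with its error, their test score and their p-value, raw and adjusted, and the submitters' processing notes name DESeq2. The sources used here name no aligner, counter, strand setting, build or annotation. All values (100% within 0.01) were whole multiples of 1 read, so reads were recovered for the count tests, where edgeR called 1744 genes.

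Every listed gene was tested as log2(normalized count + 1) with limma 3.58.1 (trend, robust, two-sided, R 4.3.3) and the experiment number of the headers as a block; the direction is TWEAK over vehicle. Deviations from the group mean correlated across genes at 0.879, 0.869 and 0.734 within a number and at -0.760 to -0.126 between numbers, so the numbers pair the libraries. Alternatives used edgeR 4.0.16 and DESeq2 1.42.0. GENCODE M21 gave transcript lengths and GC content for 99% of genes. The members and lists were chosen with earlier results of these data known; values in every library were given for the TRIM genes that passed, the 6 largest log2 fold changes, the 3 highest means and the 4 nearest the threshold, and of each other list up to 4 called genes of smallest adjusted p were named. Trim23, Trim30d and Trim37 were added after their values were seen. The GC and length correction subtracted a loess curve of each library's deviation from the gene mean. Library depth limits precision most for the 10 TRIM genes with a mean under 100.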

Additional observations from a re-analysis of the deposited data

How the results depend on the processing

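The fit described above called 2039 genes, 1210 higher and 829 lower, and 7 TRIM genes, 6 higher and 1 lower. With no replicate block 3 genes passed, 3 higher and 0 lower, and 0 TRIM genes, 0 higher and 0 lower. The GC and length correction with the replicate block, added after seeing the data, gave 3857 genes (2026 higher, 1831 lower) and 13 TRIM genes (11 higher, 2 lower). Upper quartile scaling gave 2983 genes (1591 higher, 1392 lower) and 11 TRIM genes, 10 of them higher. On the recovered reads, edgeR and limma-voom called 0 TRIM genes lower. Leaving out 1 experiment gave 695, 3902 and 666 genes for experiments 1, 2 and 3 (506, 1930 and 512 higher, 189, 1972 and 154 lower) and 1 to 14 TRIM genes (1 to 11 higher, 0 to 3 lower). The highest numbers came without experiment 2; without experiment 1 Trim2 alone and without experiment 3 Trim30a alone passed, with 2 libraries a group. Pseudocounts of 0.5 and 8 and a minimum mean of 100 kept the same 7 TRIM genes, as did cyclic loess (2503 genes) and DESeq2 (2702 genes), which called 9 TRIM genes each. The log2 fold change of 9 TRIM genes, none of which passed, changed sign when an experiment was left out. For 7 of them it was under 0.1 in size, and the others were Trim6 (-0.071 to 0.40) and Trim72 (-0.19 to 0.88). That of the macrophage gene Csf1r also changed sign (-0.23 to 0.036). The cause was not tested.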
